A study of Mus musculus with 21 samples.

Results

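Autophagy begins when the ULK1 protein kinase complex switches on a second complex, built around the lipid kinase VPS34. The ULK1 complex holds a kinase, ULK1 or ULK2, bound to the scaffold FIP200 (gene Rb1cc1), ATG13 and ATG101. The VPS34 complex holds VPS34 itself (Pik3c3), its regulatory kinase-like subunit VPS15 (Pik3r4) and Beclin 1 (Becn1), together with either ATG14, which directs it to sites of autophagosome formation, or UVRAG, which directs it to endosomes. The phosphatidylinositol 3-phosphate (PI3P) made by VPS34 recruits the proteins that build the autophagosome, and in blood stem cells autophagy is known for clearing mitochondria and keeping the cells quiescent. The 10 genes of the 2 complexes were chosen by symbol from the 47729 genes of the count table. All 10 were found once each and all 10 passed the filter on low counts in both experiments, where 16149 and 15375 genes were tested.

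RNA was measured by SMART-seq2 in hematopoietic stem cells (HSCs) sorted from mouse bone marrow as CD48- LSK CD150+ cells. In the treatment experiment, Mx1-Cre;Atg5fl/fl mice, titled Atg5-/-, received bortezomib or DMSO, and wild-type (WT) mice received bortezomib or DMSO. Bortezomib, a proteasome inhibitor, was given at 10 mg/kg, and DMSO at 10%, by retro-orbital injection 48 h and again 24 h before analysis. In the reporter experiment, untreated RFP-EGFP-LC3 mice gave 3 sorted HSC subsets: cells with RFP alone (single positive), with both RFP and GFP (double positive), or with neither (double negative). In this reporter GFP fluorescence is lost in acidic lysosomes, so that RFP alone marks LC3 delivered there. Each of the 7 groups held 3 libraries, 21 in all. Mx1-Cre is driven by an interferon-responsive promoter and is not confined to HSCs, and its induction, the age of the mice and any pooling of animals are not stated in the labels. The labels do not say that the 3 libraries of a group came from separate mice, so the p-values below measure the spread between these libraries, which may be technical.

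The libraries held 15005500 to 31481691 counts and 16095 to 18899 detected genes, and no 2 libraries of a group agreed within sampling noise. Atg5 stood at 95.2 to 142.5 CPM (counts scaled to the library total) in Atg5-/- labelled bortezomib and 107 to 114 CPM in Atg5-/- labelled DMSO libraries, against 72.1 to 135 CPM in WT bortezomib and 39.9 to 74.6 CPM in WT DMSO libraries. It was thus not lower in the libraries labelled Atg5-/-, and since a whole-gene count may hold RNA outside the deleted part, it checks nothing about that label. The defining HSC markers, such as Kit, Procr and Mecom, were detected in all 21 libraries, while Cd3e and Gzma of T and NK cells, Ms4a1 of B cells and Ctsg of granulocyte progenitors were at 0 in all 21. Other genes listed as markers of other cell types were detected in all 21. Among them were Nkg7 (up to 194 CPM) and Klrb1c of NK cells, Cd79b (up to 98.3 CPM) of B cells and Lyz2 (up to 853 CPM) of myeloid cells. Cd48 (up to 51.8 CPM), Flt3 and Cd34 of progenitors were detected too, and of these only CD48 is part of the stated gate. The libraries numbered 3 of WT DMSO, WT bortezomib and Atg5-/- labelled bortezomib stood apart from the others. Results of the treatment experiment are also given without them, as a description, since they were picked from these same data. Among the reporter libraries, squared count differences between 2 libraries of a group, relative to sampling noise, were compared. They were 24.5 for single positive 2 and 3, against 48.9 and 62.5 for pairs with single positive 1. For double negative 2 and 3 the value was 92.5, against 122 for both pairs with double negative 1. Double positive pairs lay between 52.2 (1 and 2) and 67.4 (1 and 3). Xist made up 0 to 100% of the Xist plus Ddx3y counts in Atg5-/- labelled bortezomib and 0.234 to 0.987% in Atg5-/- labelled DMSO, against 31.8 to 90.3% in WT bortezomib and 60.0 to 99.2% in WT DMSO libraries. In each of the 3 reporter groups the library numbered 2 was high in Xist (99.9, 97.4 and 88.1% in single positive, double positive and double negative cells) and the other two were at 0 to 10.2%. Sex therefore differed within and between groups. In WT DMSO 3 (60.0%) and WT bortezomib 1 (46.4%) and 2 (31.8%) both transcripts made up large shares of 1 library. Whether animals of both sexes were pooled there is not stated.

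Promoter sequences are shown for 3 of the genes. Atg14 and Ulk1 had the lowest bortezomib to DMSO ratios in WT among the genes searched. Atg101, a gene with no detected change, was chosen to set beside them. Windows from the RefSeq promoter table (GRCm38.p6) were searched for 7 of the 10 genes, namely Ulk1, Ulk2, Atg13, Atg101, Pik3r4, Atg14 and Uvrag. Rb1cc1 and Becn1 had no entry there, and Pik3c3 was left out of the search. Each window runs from 250 bases before to 50 bases after the annotated start, 5′ to 3′ on the gene's strand. Capitals mark the E-box letters CACGTG and the GC-box letters GGGCGG, searched on both strands, so that CCGCCC is GGGCGG on the other strand.
Atg14, minus strand, chr14:47568385-47568684: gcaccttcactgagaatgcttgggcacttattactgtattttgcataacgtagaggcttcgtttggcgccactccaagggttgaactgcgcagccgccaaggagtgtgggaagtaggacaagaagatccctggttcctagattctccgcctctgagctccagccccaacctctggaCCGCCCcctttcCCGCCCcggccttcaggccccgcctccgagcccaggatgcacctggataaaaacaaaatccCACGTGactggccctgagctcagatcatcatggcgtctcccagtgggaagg
Ulk1, minus strand, chr5:110810032-110810331: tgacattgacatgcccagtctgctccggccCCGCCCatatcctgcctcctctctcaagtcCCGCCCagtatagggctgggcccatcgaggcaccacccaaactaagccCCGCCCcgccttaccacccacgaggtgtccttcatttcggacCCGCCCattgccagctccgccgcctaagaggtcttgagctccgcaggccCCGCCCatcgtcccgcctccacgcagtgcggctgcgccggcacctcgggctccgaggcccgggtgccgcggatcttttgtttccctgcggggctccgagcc
Atg101, plus strand, chr15:101284051-101284350: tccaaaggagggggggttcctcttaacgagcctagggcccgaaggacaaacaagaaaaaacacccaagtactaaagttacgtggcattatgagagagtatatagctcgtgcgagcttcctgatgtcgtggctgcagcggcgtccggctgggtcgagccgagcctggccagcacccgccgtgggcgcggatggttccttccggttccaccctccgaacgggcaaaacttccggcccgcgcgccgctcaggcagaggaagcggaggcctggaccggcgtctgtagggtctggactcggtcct
The Atg14 window held 1 CACGTG and 2 GGGCGG, the Ulk1 window held 5 GGGCGG and no CACGTG, and the Atg101 window held neither. Among 32851 promoters of the same length, 7.15% held CACGTG and 35.7% held GGGCGG. Of the 7 windows, 1 held CACGTG (Atg14) and 4 held GGGCGG (Ulk1, Ulk2, Atg14 and Uvrag). CCAAT, the letters of the CCAAT box, lay in Uvrag and Pik3r4 and in 37.4% of the 32851 promoters. GC content was 57.7% for Atg14, 68.0% for Ulk1 and 62.0% for Atg101. A match describes the letters of the window and is not evidence that a factor binds there.

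Per kilobase of the longest transcript, the levels of the 10 genes in WT DMSO HSCs formed a range below 1 high member. Atg101 stood highest at 54.8 ± 6.76 CPM per kilobase (SD, n = 3). Atg13 (20.5 ± 1.43), Becn1 (19.7 ± 2.22) and Pik3c3 (18.0 ± 4.85) followed, and these 3 had overlapping ranges of mean ± SD. Uvrag (14.2 ± 1.79) and Atg14 (14.2 ± 2.22), the 2 alternative partners of Beclin 1, had the same mean level by this length. Ulk1 (10.1 ± 0.393), Ulk2 (9.94 ± 2.40), Rb1cc1 (9.89 ± 2.75) and Pik3r4 (8.99 ± 1.73) were lowest. Below Atg101, neighbours in this order had overlapping ranges of mean ± SD, except Atg14 and Ulk1. The order below Atg101 depends on the length used. Per kilobase of all exons of the gene joined, Uvrag stood at 8.12 ± 1.02 and Atg14 at 12.2 ± 1.92 CPM. Single libraries held 248 to 2725 counts of a member gene.

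Bortezomib was compared with DMSO in WT HSCs. The RNAs of 6 of the 10 genes fell: Ulk1, Rb1cc1 and Atg13 of the ULK1 complex, and Pik3c3, Pik3r4 and Atg14 of the VPS34 complex (edgeR quasi-likelihood test, adjusted p under 0.05 over all genes). No member rose. Over all genes tested, 7.56% were called lower and 15.5% were called in either direction. The members' median log2 fold change was -0.76, against -0.037 for all genes. In 7 members every WT bortezomib library lay below every WT DMSO library, as did 17.7% of all genes.

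Ulk1 (ENSMUSG00000029512.11, chromosome 5, 110784488 to 110810097, minus strand, GRCm38), the kinase that starts the cascade, measured 25.8, 25.9 and 27.9 CPM in WT bortezomib libraries, against 51.0, 52.7 and 55.1 CPM in WT DMSO libraries. The groups were far apart and each was tight. The log2 fold change was -0.99 (SE 0.27, edgeR adjusted p = 0.0233). Its paralog Ulk2 (ENSMUSG00000004798.14, chromosome 11, 61775649 to 61855073, minus strand), a kinase that can stand in for ULK1, measured 42.1, 41.5 and 32.6 CPM in WT bortezomib, against 70.8, 57.3 and 43.2 CPM in WT DMSO. The groups did not overlap, but by a narrow margin set by WT DMSO 3, and the log2 fold change of -0.56 (SE 0.21) was not called (edgeR adjusted p = 0.0891). Without WT DMSO 3 it was -0.73 and was called (edgeR adjusted p = 0.0301).

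Rb1cc1 (ENSMUSG00000025907.14, chromosome 1, 6206197 to 6276648, plus strand), the FIP200 scaffold on which the ULK1 complex is assembled, had the largest fold change of the 10. It measured 32.1, 35.9 and 27.2 CPM in WT bortezomib libraries, against 96.2, 75.3 and 54.3 CPM in WT DMSO libraries. The groups were well separated, with WT DMSO 3 the lowest of its group. The log2 fold change was -1.25 (SE 0.25, edgeR adjusted p = 0.00667). The antisense gene 4732440D04Rik overlaps its exons on the other strand and held 0.470 to 13.3 CPM over the 21 libraries. Whether counting used strand is not given in the sources used here, so its reads cannot be told apart from those of Rb1cc1. Atg13 (ENSMUSG00000027244.14, chromosome 2, 91674618 to 91710576, minus strand), the regulatory subunit that joins the kinase to FIP200, measured 53.4, 46.4 and 39.7 CPM in WT bortezomib, against 71.2, 79.8 and 70.6 CPM in WT DMSO. The groups did not overlap, and the log2 fold change was -0.67 (SE 0.17, edgeR adjusted p = 0.0157). Atg101 (ENSMUSG00000037204.6, chromosome 15, 101284272 to 101290945, plus strand), which stabilizes ATG13, did not follow: it measured 71.3 to 91.1 CPM in WT bortezomib and 64.4 to 79.6 CPM in WT DMSO, with overlapping groups (log2 fold change 0.21, SE 0.19, edgeR adjusted p = 0.487).

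In the VPS34 complex, Pik3c3 (ENSMUSG00000033628.15, chromosome 18, 30272747 to 30348126, plus strand), the catalytic subunit, measured 27.4, 40.2 and 26.5 CPM in WT bortezomib libraries, against 72.4, 62.0 and 41.3 CPM in WT DMSO libraries. Bortezomib 2 and DMSO 3 all but met. The log2 fold change was -0.90 (SE 0.25, edgeR adjusted p = 0.0269). Pik3r4 (ENSMUSG00000032571.13, chromosome 9, 105642978 to 105687657, plus strand), the VPS15 subunit that anchors VPS34 to membranes, measured 30.7, 25.2 and 18.0 CPM in WT bortezomib and 46.6, 51.5 and 34.9 CPM in WT DMSO. These groups did not overlap, and the log2 fold change was -0.85 (SE 0.22, edgeR adjusted p = 0.0172). Atg14 (ENSMUSG00000037526.6, chromosome 14, 47540893 to 47570649, minus strand), the subunit of the autophagy-specific VPS34 complex, measured 30.2, 24.3 and 24.7 CPM in WT bortezomib libraries, against 55.2, 59.6 and 43.6 CPM in WT DMSO libraries. All bortezomib libraries lay well below the DMSO libraries, with a log2 fold change of -1.0 (SE 0.21, edgeR adjusted p = 0.00785).

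The other 2 subunits of the VPS34 complexes were not called. Becn1 (ENSMUSG00000035086.13, chromosome 11, 101285952 to 101302286, minus strand), which links VPS34 to its partners and is held in check by BCL2 proteins, measured 84.6 to 96.2 CPM in WT bortezomib and 76.2 to 95.6 CPM in WT DMSO libraries (log2 fold change 0.05, SE 0.15, edgeR adjusted p = 0.846). Cntd1, which overlaps its exons on the other strand, had a median of 0.833 CPM over the 21 libraries. Uvrag (ENSMUSG00000035354.9, chromosome 7, 98885021 to 99141141, minus strand), the partner in the endosomal complex, measured 48.4, 61.5 and 67.4 CPM in WT bortezomib, against 79.6, 77.8 and 62.7 CPM in WT DMSO. Its groups overlapped at WT bortezomib 3 and WT DMSO 3, and the log2 fold change of -0.31 (SE 0.17) was not called (edgeR adjusted p = 0.222). Because ATG14 and UVRAG compete for the same site on Beclin 1, the ratio of their counts within each library is given as a description. Atg14 over Uvrag was 0.366 to 0.624 in WT bortezomib libraries and 0.694 to 0.766 in WT DMSO libraries, which did not overlap, and no test was made of it. It was 0.638 to 0.905 in Atg5-/- labelled bortezomib and 0.580 to 0.710 in Atg5-/- labelled DMSO libraries, which overlapped.

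**Figure D1:**
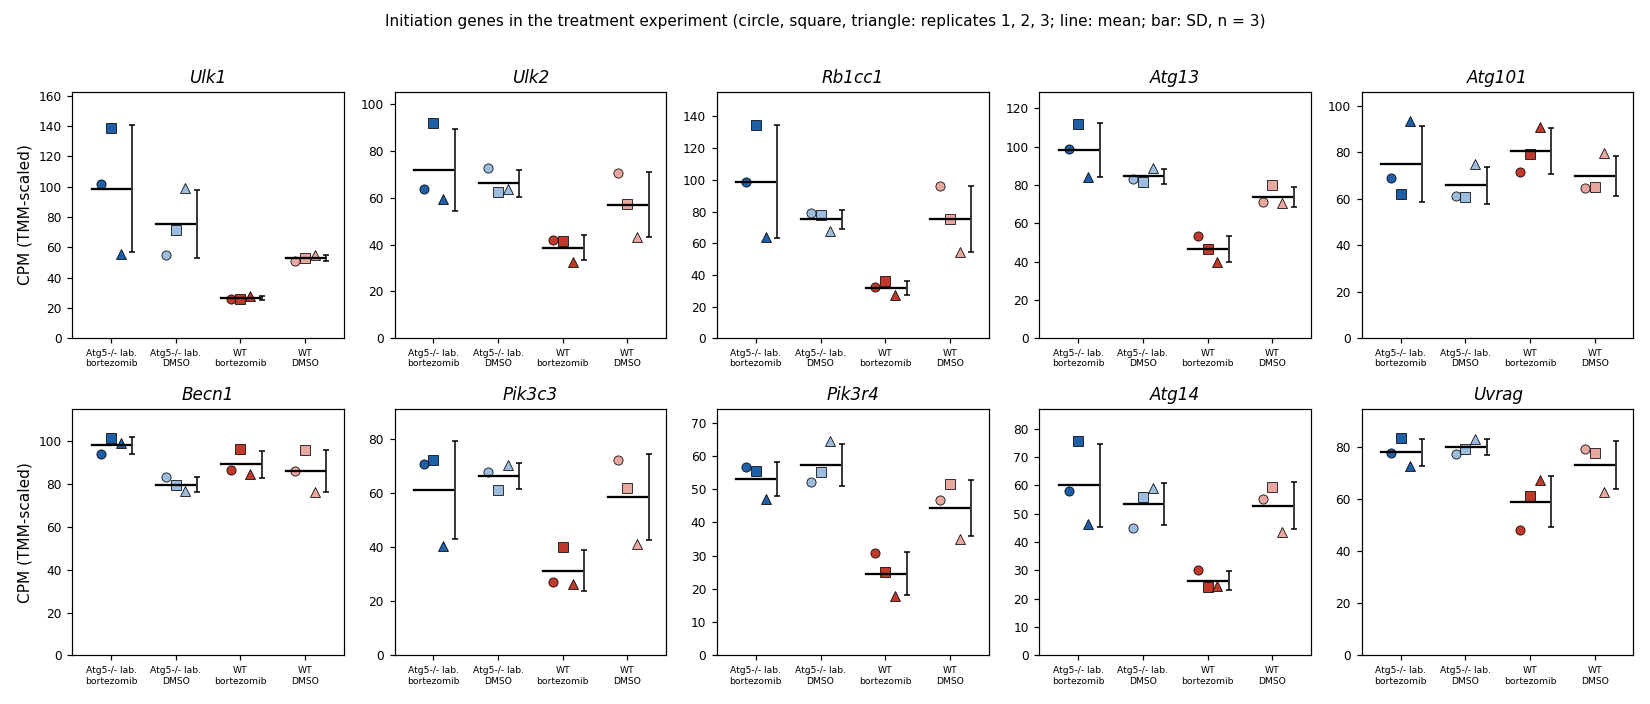
Each panel plots 1 gene's level in CPM scaled by TMM (y axis, from 0) in the 12 treatment libraries, with circle, square and triangle for replicates 1, 2 and 3, a line for the group mean and a bar for the SD (n = 3). WT bortezomib libraries lay lowest for Ulk1 (25.8 to 27.9 CPM), Rb1cc1 (27.2 to 35.9 CPM) and Atg14 (24.3 to 30.2 CPM), while Atg101 and Becn1 showed overlapping WT groups.

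Of the 6 genes that fell, Rb1cc1 and Atg14 kept their calls under all 15 alternatives run on this comparison, including each library left out in turn. The calls of the other 4 ended when single libraries were left out. In those fits the log2 fold change was -1.02 to -0.98 for Ulk1 and -0.67 to -0.57 for Atg13. It was -0.86 to -0.72 for Pik3c3 and -0.87 to -0.67 for Pik3r4. Ulk1 lost its call without bortezomib 1 (edgeR adjusted p = 0.0895), bortezomib 2 (0.0712), DMSO 1 (0.0608) or DMSO 2 (0.0738) of the WT libraries. Atg13 lost it without bortezomib 2 (adjusted p = 0.0534), bortezomib 3 (0.0571) or DMSO 2 (0.0779). Pik3c3 was not called without bortezomib 1 (adjusted p = 0.118), bortezomib 3 (0.0826), DMSO 1 (0.123) or DMSO 2 (0.0954), nor with the Xist share as a covariate (0.0814). Pik3r4 was not called without bortezomib 2 (adjusted p = 0.0521), bortezomib 3 (0.0596), DMSO 1 (0.0620) or DMSO 2 (0.0902). The number of members called was 2 without WT DMSO 2, and 3 without WT DMSO 1, WT bortezomib 2 or WT bortezomib 3. The share of all genes called fell as well, from 15.5% to 4.32, 5.8, 7.8 and 12.3% in these fits, in that order. Without the 3 libraries that stood apart, the same 6 genes were called. That fit left 2 libraries in each WT group and called 24.1% of all genes. Because the libraries left out were picked from these data, it is no check on the calls.

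Marker lists moved with this comparison. The summed HSC markers were 1480 to 1873 CPM in WT bortezomib libraries, against 2897 to 3396 CPM in WT DMSO libraries, and 8 of the 10 markers were called lower. The T and NK cell list, with Cd3e and Gzma at 0, summed to 134 to 196 CPM in WT bortezomib, against 91.5 to 94.0 CPM in WT DMSO, and Nkg7 was called higher. Of the progenitor list, Cd48, the gene of the protein that the CD48- gate sorts against, was called higher. It stood at 27.3 to 48.7 CPM in WT bortezomib, against 9.88 to 13 CPM in WT DMSO libraries (log2 fold change 1.83, edgeR adjusted p = 0.00723). The list as a whole, with Ctsg at 0, summed to 579 to 740 CPM in WT bortezomib, against 656 to 787 CPM in WT DMSO, most of it from Cd34. The erythroid list summed to 30.6 to 37.1 CPM in WT bortezomib, against 23.9 to 28.6 CPM in WT DMSO, with Epor called higher and Hba-a1, which has a near-identical copy that can share its reads, called lower. In the monocyte and macrophage list 6 of 7 log2 fold changes were positive (median 0.52) and Cd68 was called higher. Its sum, most of which was Lyz2, was 550 to 793 CPM in WT bortezomib, against 718 to 929 CPM in WT DMSO. No gene of the neutrophil, B cell and megakaryocyte lists was called. In sorted bulk cells, fewer cells of a type and less RNA per cell cannot be told apart, and the part of these shifts in the members' changes was not tested.

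Transcript length moved with it too. Over all genes, split by longest transcript into 4 classes of near equal size, the median log2 fold change of WT bortezomib against WT DMSO was 0.31 in the shortest class, 0.00 and -0.12 in the middle classes, and -0.25 in the longest. Atg101, at 1270 bases, was the only member in the shortest class. Atg13, Becn1, Pik3c3 and Atg14 lay in the third class, and Ulk1, Ulk2, Rb1cc1, Pik3r4 and Uvrag in the longest. With offsets that take up length and GC content, 5 of the 10 were still called lower, with Rb1cc1 at -1.02 (edgeR adjusted p = 0.00406), Atg14 at -0.77 (0.0108), Pik3c3 at -0.73 (0.0375), Pik3r4 at -0.57 (0.0373) and Atg13 at -0.45 (0.0489). Ulk1 was at -0.73 and no longer called (edgeR adjusted p = 0.0560), and Uvrag was at -0.03 (0.932).

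**Figure D2:**
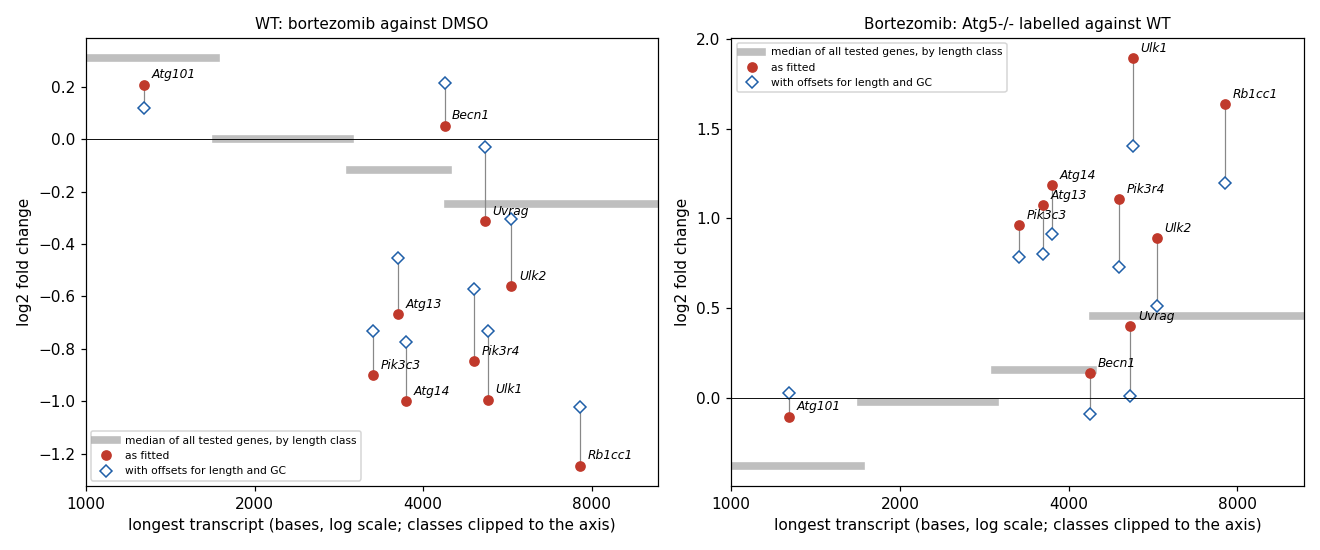
The log2 fold change (y axis) is plotted against the length of each gene's longest transcript in bases (x axis, log scale) as fitted (filled circles) and with offsets for length and GC (open diamonds), beside the median of all tested genes in each class of length (grey bars), for WT bortezomib against WT DMSO (left) and Atg5-/- labelled against WT under bortezomib (right). The offsets moved Rb1cc1 from -1.25 to -1.02 on the left and from 1.64 to 1.20 on the right. The grey medians come from the fit without offsets, so only the filled circles compare with them.

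Bortezomib was then compared with DMSO in HSCs labelled Atg5-/-. No member was called in either direction with edgeR, against 3.63% of all genes, and none had an unadjusted p under 0.05. The smallest was 0.0568, for Becn1, and DESeq2 called none either. The members' median log2 fold change was 0.18, against 0.003 for all genes. Becn1 measured 93.7, 101 and 99.2 CPM in Atg5-/- labelled bortezomib, against 83.1, 79.5 and 76.4 CPM in Atg5-/- labelled DMSO libraries. It was the only member whose groups did not overlap, as did 10.6% of all genes in the higher direction (log2 fold change 0.30, SE 0.15, edgeR adjusted p = 0.321).

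Ulk1 measured 102, 139 and 55.6 CPM in Atg5-/- labelled bortezomib, against 55.2, 71.5 and 99.2 CPM in Atg5-/- labelled DMSO libraries (log2 fold change 0.39, SE 0.27, edgeR adjusted p = 0.524). Rb1cc1 measured 98.5, 135 and 63.6 CPM in Atg5-/- labelled bortezomib, against 79.1, 78.1 and 67.8 CPM in Atg5-/- labelled DMSO libraries (log2 fold change 0.40, SE 0.25, edgeR adjusted p = 0.472). In both genes Atg5-/- labelled bortezomib 2 was the highest and bortezomib 3 the lowest of the bortezomib group, so that the groups overlapped. Without the 3 libraries that stood apart, both were called higher, Ulk1 at 0.69 (edgeR adjusted p = 0.0436) and Rb1cc1 at 0.64 (0.0233), in a fit that left 2 libraries in the bortezomib group and called 11.6% of all genes. Pik3c3 likewise was low in Atg5-/- labelled bortezomib 3, at 40.4 CPM beside 70.9 and 72.3 CPM in the other two, against 61.2 to 70.3 CPM in Atg5-/- labelled DMSO libraries (log2 fold change -0.12, SE 0.25). The remaining 6 members had log2 fold changes of -0.11 (Pik3r4) to 0.22 (Atg13). Here the medians of all genes by length class ran only between -0.04 and 0.03.

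The genotypes were compared first under DMSO. No member was called, and no gene of the 16149 was called with edgeR, although 1454 had an unadjusted p under 0.05 and DESeq2 called 157. The Xist share was 0.234 to 0.987% in Atg5-/- labelled DMSO and 60.0 to 99.2% in WT DMSO libraries. Genotype and sex thus cannot be told apart between these groups. Ulk1, Atg13 and Pik3r4 had every Atg5-/- labelled DMSO library above every WT DMSO library, as did 9.39% of all genes. Their log2 fold changes were 0.51 (SE 0.27, edgeR adjusted p = 0.593), 0.19 (SE 0.16, 0.761) and 0.37 (SE 0.21, 0.623). The medians of all genes by length class ran between -0.14 in the shortest and 0.22 in the longest class, and with the length and GC offsets these 3 were at 0.21, 0.11 and 0.19. For Ulk1 the lowest Atg5-/- labelled library, at 55.2 CPM, was barely above the highest WT library, at 55.1 CPM. Rb1cc1 measured 67.8 to 79.1 CPM in Atg5-/- labelled DMSO and 54.3 to 96.2 CPM in WT DMSO libraries, with a log2 fold change of -0.004 (SE 0.25, edgeR adjusted p = 0.999).

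Under bortezomib the genotypes differed. In Atg5-/- labelled HSCs 7 members were higher than in WT HSCs: Ulk1, Ulk2, Rb1cc1 and Atg13 of the ULK1 complex and Pik3c3, Pik3r4 and Atg14 of the VPS34 complex. None was lower. Over all genes, 17.2% were called higher and 32.4% in either direction. The members' median log2 fold change was 1.02, against 0.084 for all genes. In 8 members every Atg5-/- labelled bortezomib library lay above every WT bortezomib library, as did 22.3% of all genes. This comparison uses the same WT bortezomib libraries as that of bortezomib with DMSO in WT, so the 2 are not independent.

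Ulk1 showed the largest difference of the 10, with 102, 139 and 55.6 CPM in Atg5-/- labelled bortezomib libraries, against 25.8, 25.9 and 27.9 CPM in WT bortezomib libraries. Even the lowest Atg5-/- labelled library was well above the WT libraries. The log2 fold change was 1.89 (SE 0.28, edgeR adjusted p = 0.000250), a 3.72-fold higher level. Rb1cc1 was 3.12-fold higher, with 63.6 to 135 CPM in Atg5-/- labelled bortezomib and 27.2 to 35.9 CPM in WT bortezomib (log2 fold change 1.64, SE 0.26, edgeR adjusted p = 0.000354). Atg13 measured 98.6, 112 and 83.9 CPM in Atg5-/- labelled bortezomib, against 53.4, 46.4 and 39.7 CPM in WT bortezomib (log2 fold change 1.08, SE 0.17, edgeR adjusted p = 0.000339). Ulk2 measured 63.9, 91.8 and 59.6 CPM in Atg5-/- labelled bortezomib, against 42.1, 41.5 and 32.6 CPM in WT bortezomib. Its groups were separate, with a log2 fold change of 0.89 (SE 0.22, edgeR adjusted p = 0.00546). Ulk1 over Ulk2, as a ratio of counts within a library, was 0.933 to 1.59 in Atg5-/- labelled bortezomib and 0.613 to 0.858 in WT bortezomib libraries, a description that was not tested. This ratio overlapped between treatments in both genotypes, since it was 0.758 to 1.56 in Atg5-/- labelled DMSO and 0.721 to 1.28 in WT DMSO libraries.

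Among the VPS34 subunits, Atg14 measured 58.2, 75.6 and 46.5 CPM in Atg5-/- labelled bortezomib, against 30.2, 24.3 and 24.7 CPM in WT bortezomib (log2 fold change 1.19, SE 0.21, edgeR adjusted p = 0.000739). Pik3r4 measured 56.7, 55.4 and 47.1 CPM in Atg5-/- labelled bortezomib, against 30.7, 25.2 and 18.0 CPM in WT bortezomib (log2 fold change 1.11, SE 0.22, edgeR adjusted p = 0.00137). Both genes were separated cleanly by genotype. Pik3c3, at 70.9, 72.3 and 40.4 CPM in Atg5-/- labelled bortezomib against 27.4, 40.2 and 26.5 CPM in WT bortezomib, was separated by a hair, since Atg5-/- labelled bortezomib 3 and WT bortezomib 2 nearly met (log2 fold change 0.96, SE 0.25, edgeR adjusted p = 0.00908). Uvrag, at 72.9 to 83.5 CPM in Atg5-/- labelled bortezomib and 48.4 to 67.4 CPM in WT bortezomib, did not overlap but was not called (0.40, SE 0.17, edgeR adjusted p = 0.0770), and with the length and GC offsets it stood at 0.01. Becn1 (0.14, SE 0.15, edgeR adjusted p = 0.509) and Atg101 (-0.10, SE 0.19, 0.715) overlapped between genotypes.

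All 7 calls held under every one of the 15 alternatives run on this comparison, with adjusted p-values of at most 0.0477 (Pik3c3). Without the 3 libraries that stood apart, Uvrag was called as well (0.52, edgeR adjusted p = 0.0209). With the length and GC offsets Ulk1 was at 1.40 (edgeR adjusted p = 0.000749), Rb1cc1 at 1.20 (0.000424) and Ulk2 at 0.51 (0.0285). The medians of all genes by length class ran between -0.38 in the shortest and 0.45 in the longest class. The summed HSC markers were 2592 to 3022 CPM in Atg5-/- labelled bortezomib libraries, against 1480 to 1873 CPM in WT bortezomib libraries, with 7 of the 10 called higher and none lower. The monocyte and macrophage markers summed to 320 to 660 CPM in Atg5-/- labelled bortezomib, against 550 to 793 CPM in WT bortezomib, with 4 of 7 called lower. Cd48 (-2.16, edgeR adjusted p = 0.000725) and Nkg7 (-1.27, 0.00419) were lower as well, and Flt3 (1.3, 0.00602) and Hba-a1 (2.36, 0.0215) were higher. In the neutrophil list 1 gene was called lower, and in the megakaryocyte list 2 were called higher and 3 lower. The part of these shifts in the members' differences was not tested.

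Whether the response to bortezomib differed between genotypes was tested as an interaction, the Atg5-/- labelled response minus the WT response. It was called for 4 members, all positive: Rb1cc1 at 1.64 (SE 0.36, edgeR adjusted p = 0.0143), Ulk1 at 1.38 (SE 0.38, 0.0359), Atg14 at 1.17 (SE 0.29, 0.0255) and Atg13 at 0.88 (SE 0.23, 0.0307). Over all genes, 4.35% were called positive and 9.05% in either direction. The members' median was 0.76, against 0.060 for all genes. Pik3c3 (0.78, SE 0.36, edgeR adjusted p = 0.179), Pik3r4 (0.74, SE 0.30, 0.135) and Ulk2 (0.67, SE 0.30, 0.172) were not called. Uvrag (0.27, SE 0.24), Becn1 (0.25, SE 0.21) and Atg101 (-0.02, SE 0.26) lay closer to 0.

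These interaction calls depended on covariates and on single libraries. With the Xist share as a covariate none of the 4 was called: Rb1cc1 at 1.63 (edgeR adjusted p = 0.0608), Ulk1 at 1.36 (0.107), Atg14 at 1.16 (0.0858) and Atg13 at 0.93 (0.0833). Rb1cc1 kept its call in all other alternatives. Ulk1 was not called without WT DMSO 1 or 2, WT bortezomib 1 or 2, Atg5-/- labelled DMSO 1 or 2, or Atg5-/- labelled bortezomib 1 or 2 (edgeR adjusted p = 0.0650 to 0.0972). Atg13 was not called without any 1 of those 8 libraries or without WT bortezomib 3 (edgeR adjusted p = 0.0513 to 0.0905). Atg14 was not called without any 1 of those 8 except Atg5-/- labelled bortezomib 1 (edgeR adjusted p = 0.0502 to 0.0786). Thus 1 member was called without 7 of these 8 libraries and 2 without Atg5-/- labelled bortezomib 1. The share of all genes called fell as well, from 9.05% to between 2.07 and 4.52% in these 8 fits. With the Xist covariate it was 1.71%. Pik3c3 was called without Atg5-/- labelled bortezomib 3 (0.98, edgeR adjusted p = 0.0425). Without the 3 libraries that stood apart, 7 members were called, Ulk2, Pik3c3 and Pik3r4 being added, in a fit that called 24.5% of all genes.

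**Figure D3:**
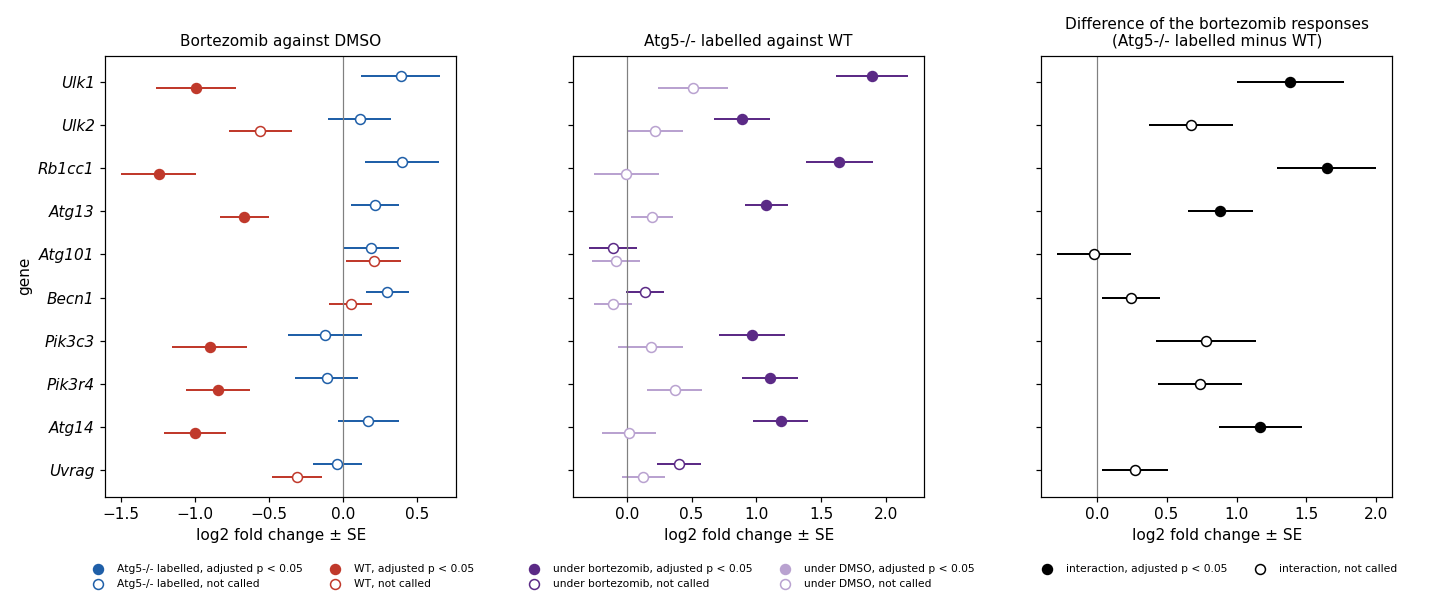
Points give the log2 fold change ± SE (x axis) of each gene (y axis), filled where the edgeR adjusted p was under 0.05, for bortezomib against DMSO in each genotype (left), for Atg5-/- labelled against WT under each treatment (middle) and for the difference of the 2 bortezomib responses (right). WT bortezomib changes were negative for Ulk1 (-0.99) and Rb1cc1 (-1.25) while Atg101, Becn1 and Uvrag were called in no panel.

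The reporter subsets were compared to ask whether HSCs sorted by LC3 reporter fluorescence differ in these genes. No member was called in any of the 3 comparisons. With edgeR 0 of 15375 genes (0%) were called between RFP single positive and double positive cells, where 209 had an unadjusted p under 0.05 and DESeq2 called 2. Between RFP single positive and double negative cells 0 genes (0%) were called, with 1160 at an unadjusted p under 0.05 and 19 called by DESeq2. Between double positive and double negative cells 1 gene (0.0065%) was called, with 1315 at an unadjusted p under 0.05 and 47 called by DESeq2.

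Ulk1 measured 64.8, 47.3 and 62.8 CPM in RFP single positive libraries and 52.0, 56.0 and 76.4 CPM in double positive libraries, against 16.1, 29.2 and 43.4 CPM in double negative libraries. Every library of both fluorescent groups lay above every double negative library. Such separation was seen in 7.64% of all genes for single positive and 6.28% for double positive cells. Log2 fold changes against double negative cells were 0.98 (SE 0.32, edgeR adjusted p = 0.651) and 1.06 (SE 0.32, 0.555). Without double negative 1, the lowest library, they were 0.68 (edgeR adjusted p = 0.821) and 0.75 (0.595), and with the length and GC offsets 0.51 and 0.73. Rb1cc1 measured 45.7, 55.8 and 65.3 CPM in RFP single positive and 35.4, 75.4 and 45.8 CPM in double positive, against 25.1, 33.9 and 45.4 CPM in double negative libraries. It separated single positive from double negative cells by a narrow margin (0.68, SE 0.31, edgeR adjusted p = 0.660), and was at 0.48 without double negative 1.

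Atg14 measured 55.9, 52.1 and 49.3 CPM in RFP single positive libraries, against 40.8, 36.8 and 43.2 CPM in double positive libraries, which did not overlap, as did 3.84% of all genes in that direction (log2 fold change 0.38, SE 0.28, edgeR adjusted p = 1.00). Its double negative libraries spanned both, at 52.0, 23.6 and 46.3 CPM. Without double positive 1 or 2 the difference was 0.39 and 0.32. Double negative libraries spread widely for Ulk2 and Atg13. Ulk2 measured 12.3, 33.3 and 50.7 CPM and Atg13 30.4, 39.6 and 89.6 CPM there, with double negative 1 lowest and double negative 3 highest. Ulk2 measured 37.9 to 53.6 CPM in single positive and 43.7 to 55.1 CPM in double positive libraries, and Atg13 64.9 to 69.4 CPM and 48.5 to 73.6 CPM. Becn1 varied least, with 68.1 to 77.0 CPM in single positive, 65.7 to 81.0 CPM in double positive and 69.1 to 75.6 CPM in double negative libraries. The medians of all genes by length class ran between -0.30 and 0.28 for single positive against double negative cells. The summed HSC markers were 2653 to 3200 CPM in single positive and 2378 to 3441 CPM in double positive, against 1678 to 2888 CPM in double negative libraries. Neutrophil markers summed to 9.23 to 10.8 CPM in single positive and 20.6 to 33.8 CPM in double positive, against 21.9 to 52.0 CPM in double negative libraries. All 7 monocyte and macrophage markers had negative log2 fold changes in single positive cells against both other groups, as did all 6 neutrophil markers against double positive cells and all 5 tested progenitor markers against double negative cells, though none of these was called. The 5 progenitor markers were negative in double positive against double negative cells too (median -0.60), again with none called. The part of these lists in the members' values was not tested.

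**Figure D4:**
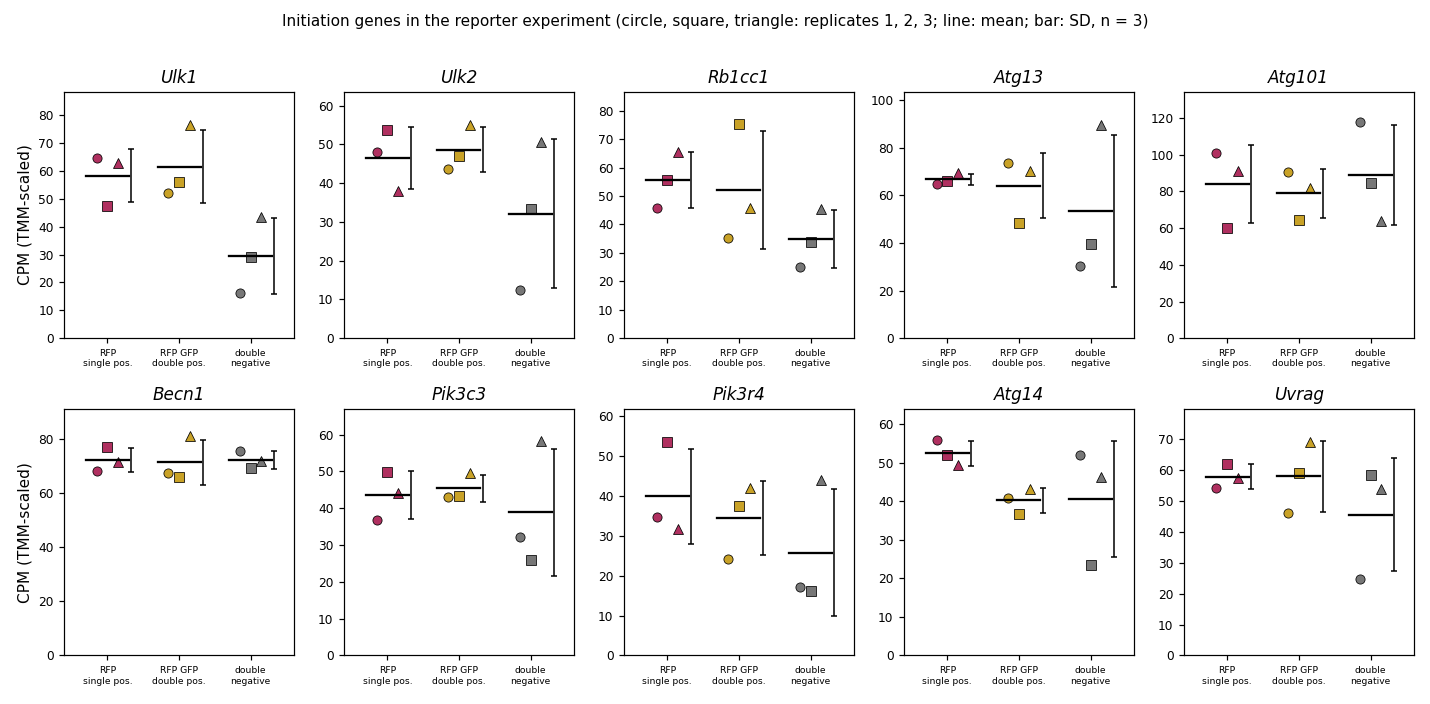
Each panel plots 1 gene's level in CPM scaled by TMM (y axis, from 0) in the 9 reporter libraries, with circle, square and triangle for replicates 1, 2 and 3, a line for the group mean and a bar for the SD (n = 3). Double negative libraries spread from 12.3 to 50.7 CPM for Ulk2 and from 16.1 to 43.4 CPM for Ulk1, while Becn1 stayed between 65.7 and 81.0 CPM in all 9.

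Other genes of the pathway were counted in 4 lists, here by edgeR adjusted p over all genes. The first, the partner list, held partners of the ULK1 and VPS34 complexes together with other ULK family kinases and fusion SNAREs. Of its 12 tested genes, 1 rose and none fell in WT bortezomib against WT DMSO (median log2 fold change 0.11). It was Vamp8, a SNARE for fusion of autophagosomes with lysosomes, at 930 ± 63.9 CPM in WT bortezomib and 592 ± 126 CPM in WT DMSO libraries (log2 fold change 0.65, edgeR adjusted p = 0.0367). Of 25 genes of AMPK and mTORC1, the kinases that activate and inhibit ULK1, 3 rose and none fell (median 0.15). These were Rheb, the small GTPase that activates mTORC1 (0.77, adjusted p = 0.00928), Lamtor4, a subunit of the Ragulator that anchors mTORC1 to lysosomes (0.86, 0.0172), and Tbc1d7, a subunit of the TSC complex that inhibits it (0.88, 0.0290). The 3 include both an activator and an inhibitor of mTORC1. Over all genes 7.97% were called higher. Without WT DMSO 1 or 2 these 4 genes were not called (edgeR adjusted p = 0.0503 to 0.156), and single WT bortezomib libraries also ended the calls of Vamp8 (any), Lamtor4 (1) and Tbc1d7 (1 or 2), at 0.0667 to 0.137. With the Xist share as a covariate Vamp8 (0.0797) and Tbc1d7 (0.0756) were not called.

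Of 21 genes of PI3P and related lipids, 1 rose and 2 fell in WT bortezomib (median -0.31). Mtmr14, a phosphatase that removes the phosphate VPS34 adds, measured 50.5 ± 15.5 CPM in WT bortezomib and 91.2 ± 4.65 CPM in WT DMSO libraries (log2 fold change -0.85, edgeR adjusted p = 0.0141). Wipi1, a PI3P-binding protein of forming autophagosomes, was low, at 3.54 ± 1.35 CPM in WT bortezomib and 7.52 ± 1.67 CPM in WT DMSO (-1.08, edgeR adjusted p = 0.0365). Fig4, a lipid phosphatase partner of PIKFYVE, was higher (0.61, edgeR adjusted p = 0.0305). Of 23 genes of the later core machinery, 2 rose and 2 fell (median -0.001). Over all genes 7.97% were called higher and 7.56% lower, so the counts of both lists lay near the share of all genes. Vmp1, a lipid scramblase needed for autophagosome formation, rose (0.89, edgeR adjusted p = 0.00679), and the LC3 family genes Gabarapl1 (-0.55, 0.0172) and Map1lc3b (-0.62, 0.0174) fell. Leaving out WT DMSO 2 ended the calls of Mtmr14 (0.0628), Wipi1 (0.156), Fig4 (0.0615), Gabarapl1 (0.0824) and Map1lc3b (0.0597). Other single WT libraries ended those of Wipi1 (DMSO 1, bortezomib 1 or 2), Fig4 (DMSO 1 or 3, bortezomib 1 or 2), Gabarapl1 (DMSO 1, bortezomib 1 or 2) and Map1lc3b (bortezomib 1), at edgeR adjusted p = 0.0522 to 0.157. With the length and GC offsets the calls of Map1lc3b (0.166) and Wipi1 (0.0679) ended, and that of Wipi1 also with the Xist share as a covariate (0.0841) or only the compared groups in the fit (0.0667).

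In Atg5-/- labelled HSCs, bortezomib against DMSO called no gene of the first 3 lists. Of the 23 later genes 4 rose and none fell (median 0.22), against 2.02% of all genes called higher. Atg4a, a protease that processes LC3 family proteins, measured 37.0 ± 5.08 CPM in Atg5-/- labelled bortezomib and 19.3 ± 2.67 CPM in Atg5-/- labelled DMSO libraries (log2 fold change 0.94, edgeR adjusted p = 0.0161). Vmp1 rose here too (0.85, edgeR adjusted p = 0.0164). Gabarapl1 rose (0.53, edgeR adjusted p = 0.0463), while in WT it fell. Each of these 3 calls ended without Atg5-/- labelled DMSO 2 or 3, those of Atg4a and Gabarapl1 also without DMSO 1, and those of Vmp1 and Gabarapl1 without bortezomib 2 (edgeR adjusted p = 0.0559 to 0.185). With only the compared groups in the fit Atg4a (0.0547) and Gabarapl1 (0.157) were not called, nor was Gabarapl1 without the filter on low counts (0.103).

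Between genotypes under bortezomib, 8 of the 21 lipid genes were higher and none lower in Atg5-/- labelled HSCs, as were 8 of the 23 later genes with 1 lower, beside 17.2% of all genes called higher and 32.4% in either direction. The leading lipid genes were Wipi1 (log2 fold change 1.87, edgeR adjusted p = 0.000755), Hgs, a PI3P-binding subunit of the endosomal ESCRT machinery (1.19, 0.00104), and the lipid kinase gene Pi4k2b (1.09, 0.00287). Among the later genes Atg9a, a scramblase of the vesicles that seed autophagosomes, measured 53.5 ± 14 CPM in Atg5-/- labelled bortezomib and 19.9 ± 6.43 CPM in WT bortezomib (1.42, edgeR adjusted p = 0.000872). Gabarapl1 (0.82, edgeR adjusted p = 0.000605) and Wdr45, another PI3P-binding protein (0.89, 0.00411), were higher as well. Of the 25 upstream genes 4 were higher, a share near that of all genes, and 6 lower. Over all genes, 21.9% in the shortest and 6.64% in the longest length class were called lower. Among the called upstream genes, the AMPK subunit genes Prkab1 (0.95, edgeR adjusted p = 0.00176) and Prkag1 (-0.94, 0.00210) moved in opposite directions. Lamtor1 of the Ragulator was lower (-0.87, 0.00347). Of the 12 tested genes of the partner list 4 were higher and 2 lower. Ambra1, a scaffold that binds Beclin 1, was higher (0.71, edgeR adjusted p = 0.0130), and Vamp8 (-0.82, 0.00530) and Usp10, a deubiquitinase of Beclin 1 (-0.71, 0.00964), were lower. The call of Ambra1 ended with the length and GC offsets (0.203) and without WT bortezomib 1 (0.0522), WT bortezomib 3 (0.0521) or Atg5-/- labelled bortezomib 2 (0.0522). In the reporter comparisons no gene of the 4 lists was called.

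The genes with the most similar pattern over the 12 treatment libraries were found for the 3 members with the smallest p-values, by Pearson correlation of log2 CPM, as a description over libraries that share 4 groups. For Ulk1 these included Bbc3 (0.967) and Rhoq (0.960). For Atg13 they included Pcdhgb6 (0.966) and Rundc1 (0.964), and for Rb1cc1 they were Pkd2 (0.973), Zfc3h1 (0.971) and Zmym6 (0.968).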

How the data were processed

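Illumina mRNA libraries of sorted mouse HSCs were made with SMART-seq2, per the labels' protocols. The authors deposited 1 table of whole-number counts per gene for all 21 libraries. The submitters' processing notes name Bowtie 1.0.0, STAR 2.6.1 and HTSeq 0.7.1, and the builds GRCm38.p4 and GRCh38, with no roles. No source used here gives the annotation release, how multimapping reads were treated or whether counting used strand. Every column was matched to a sample by its name, and 0 columns were left over. Library totals ran from 15005500 to 31481691 counts, which sets a floor of 0.0953 to 0.200 CPM for 3 counts. Such floors cover counting error only.

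From these counts, genes were filtered with filterByExpr and normalised by TMM, and edgeR 4.0.16 (R 4.3.3) quasi-likelihood tests were fitted over all genes, in 1 fit of the 12 treatment libraries and 1 of the 9 reporter libraries, for 8 comparisons. P-values were adjusted by Benjamini-Hochberg over all genes tested and called under 0.05. Standard errors were taken from the fold change and its F statistic. Gene levels are CPM on TMM-scaled totals. Marker sums and the levels of overlapping genes are CPM on plain totals. Gene positions and transcript lengths came from the GENCODE annotation of GRCm38, matched by gene ID, and 58 tested genes of the treatment experiment had no length. The procedure was also run on simulated counts with independent libraries. These held no effects of sex, cell markers or transcript length, so that run does not test the calls made here. Alternatives were relative log expression size factors, DESeq2 1.42.0, limma 3.58.1 with voom quality weights, no filter, only the compared groups, the replicate number as a block, an Xist share covariate, spline offsets for length and GC, each library left out, and 3 libraries left out together. Figures were drawn with matplotlib 3.10.9.

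Named genes are the 10 members in every comparison, up to 3 called genes of each pathway list with the smallest p, and the 3 most correlated genes of at most 3 members. Of the correlated genes, 1 is not reported here. The members, the lists and the alternatives were chosen with earlier results of these data known. Sequences not in the reference tables are not used here.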

Additional observations from a re-analysis of the deposited data

Results flagged for a closer look

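In 4 members the response to bortezomib differed between genotypes by the interaction test of edgeR, as Atg5-/- labelled minus WT on the log2 scale. The difference was 1.64 for Rb1cc1, 1.38 for Ulk1, 1.17 for Atg14 and 0.88 for Atg13. Of other named pathway genes, the same test called 5. They were 1 of 12 genes of the partner list, 0 of 25 upstream genes, 2 of 21 lipid genes and 2 of 23 later genes. Over all genes 9.05% were called in either direction, so these lists held no clear excess. The difference was 1.78 (SE 0.46, edgeR adjusted p = 0.0279) for Wipi1, 1.10 (SE 0.31, 0.0400) for Hgs, 1.08 (SE 0.20, 0.00819) for Gabarapl1, 0.86 (SE 0.25, 0.0417) for Atg7 and -0.89 (SE 0.27, 0.0498) for Usp10. Atg7 encodes the enzyme that activates ATG12 and LC3 for conjugation. For Gabarapl1 the call ended under none of the alternatives run. With the Xist share as a covariate Wipi1 (adjusted p = 0.111), Hgs (0.0999), Atg7 (0.212) and Usp10 (0.0534) were no longer called. Leaving out single libraries also ended calls. Wipi1 was not called without WT DMSO 2, WT bortezomib 1 or 2, Atg5-/- labelled DMSO 1 or 2, or Atg5-/- labelled bortezomib 1 or 2 (edgeR adjusted p = 0.0565 to 0.0847). Hgs was not called without WT DMSO 1 or 2, WT bortezomib 1 or 3, any Atg5-/- labelled DMSO library, or Atg5-/- labelled bortezomib 1 or 2 (0.0539 to 0.103). Atg7 was not called without WT DMSO 1 or 2, any WT bortezomib library, any Atg5-/- labelled DMSO library, or Atg5-/- labelled bortezomib 1 or 2 (0.0577 to 0.130). Usp10 was not called without any WT library, Atg5-/- labelled DMSO 1 or 2, or Atg5-/- labelled bortezomib 2 (0.0666 to 0.133), nor without the 3 libraries that stood apart (0.0579).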

How the results depend on the processing

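In no alternative did a called member value change sign. Of 1220 member values under alternatives, 1162 kept their side of the threshold and direction or changed sign while called in neither setting, 45 lost their call and 13 gained one. Sign changes of values called in neither setting numbered 87, between -0.22 and 0.21. The number of members called, 6 in WT bortezomib against WT DMSO, was 2 to 7 when single libraries were left out. The count of 4 in the interaction was 1 to 5 when single libraries were left out, 0 with the Xist share as a covariate and 7 without the 3 libraries that stood apart. The count of 0 in Atg5-/- labelled bortezomib against DMSO was 2 without those 3 libraries. The share of all genes called also moved when single libraries were left out. It ran from 3.47 to 16.4% in WT bortezomib against WT DMSO and from 2.07 to 16.7% in the interaction. The 7 called between genotypes under bortezomib and the counts of 0 elsewhere stayed within 1.5 times the reported count. The causes of these shifts were not tested.

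The replicate numbers were not used to pair the libraries in the main fits. In no comparison did every same-numbered pair correlate above 0.1. Correlations were -0.028 to 0.099 over the 4 treatment comparisons and -0.014 to 0.165 over the 3 reporter comparisons. Between RFP single positive and double positive libraries each number matched best with itself (0.117, 0.054 and 0.093). Against double negative libraries, numbers 1 and 3 of both fluorescent groups did so and number 2 did not. With the shared Xist pattern of the reporter numbers, these matches are a hint of pairing there from the data, not the design. With the replicate block the number of members called was again 6, 0, 0, 7 and 4 in the treatment comparisons and 0 in the 3 reporter comparisons.

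With 3 libraries a group, a difference that misses the threshold is not shown to be absent. Over all genes the number called moved with the method, for example from 2508 to 6234 with voom quality weights and 3485 with DESeq2 in WT, and from 1462 to 276 with the Xist covariate in the interaction. Counts without strand or isoform cannot separate antisense or alternative transcripts.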
